A study of Mus musculus with 8 samples.

Results

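Interferon-stimulated genes are the genes that a cell switches on when an interferon, a secreted protein of antiviral defence, binds its receptor. A list of 44 such genes, which includes both chains of the type I interferon receptor, was taken by gene symbol from the count table of the series. All 44 were among the 23284 genes of the table, and all 44 were among the 13300 genes with enough reads to be tested. The samples were RNA-seq libraries of LSK cells, the lineage-negative, Sca-1+, cKit+ compartment of mouse bone marrow that holds stem cells and early progenitors. They came from Hdc-GFP mice of the C57BL/6 strain, in which GFP reports Hdc, the gene of the histamine-making enzyme histidine decarboxylase. Cells were sorted into an Hdc-GFPhi fraction (4 libraries) and an Hdc-GFPlo fraction (4 libraries), with 2000 cells per library, and the comparison of these fractions is the one the study was built for. The reporter is carried by both fractions. No treatment is named, with age, sex, the number of animals and the design of the reporter not given in the sources used here. No label ties a replicate to its own animal, so the p-values rest on a spread between samples that may be technical.

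The libraries held 16726179 to 23051277 counts each, and 14856 to 15446 genes had at least 1 count. The LSK label was checked against its 2 positive genes: Kit had 13503 to 34517 counts per library and Ly6a, which encodes Sca-1, had 1902 to 3081. Of genes of mature lineages, the neutrophil gene Ngp had 8534 to 17818 counts and the B cell gene Cd79b had 1729 to 3518. The T cell gene Cd3e had at most 6 and the globin gene Hba-a1 had 0. The positive genes alone do not show that the cells were lineage-negative. Hdc RNA did not separate the fractions, at 12.1 ± 2.12 CPM (read counts scaled to a common library total; SD, n = 4) in Hdc-GFPhi against 12.1 ± 1.21 in Hdc-GFPlo, or −0.01 ± 0.18 (SE) as a log2 fold change (adjusted p = 0.995). Reads of the GFP reporter itself were not analysed here, and the fractions are named as labelled. Hdc-GFPhi replicate 4 carries a GFP+ cell type label where its group has GFPhi.

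Type I interferons signal through a receptor of an IFNAR1 and an IFNAR2 chain, which activates the kinases JAK1 and TYK2. These activate transcription factors that join IRF9 in a complex called ISGF3, which binds interferon-stimulated response elements in promoters. Type II interferon uses another receptor and mainly another factor complex, so its targets overlap only in part with those of type I. Many of these genes keep a basal level without infection, and in bone marrow interferon is known to push dormant stem cells into division.

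Promoter sequences are shown first because the response element is the known entry point of type I interferon signalling into such genes. Windows from 250 bases before to 50 bases after the annotated start were available from RefSeq (GRCm38.p6) for 31 of the 44 members. The search used the ISRE-like core GAAANNGAAA on both strands. The core was found in 16 of the 31 (51.6%), against 3.99% of all 27025 genes with windows. In 12 of the 16 a match lay before the start, and 7 of the 16 had 2 or more matches. A match is a description of the letters and does not show that a factor binds there. The 150 bases before the start are given for 6 members whose expression is described below, 5′ to 3′ on the strand of the gene, with matches in capitals. A match on the opposite strand appears as the reverse complement of the core.
Ifit1 (chr19:34640739-34640888, plus strand): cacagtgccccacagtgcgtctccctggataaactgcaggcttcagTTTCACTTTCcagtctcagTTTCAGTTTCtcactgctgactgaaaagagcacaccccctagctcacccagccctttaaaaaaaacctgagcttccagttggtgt
Isg15 (chr4:156200819-156200968, minus strand): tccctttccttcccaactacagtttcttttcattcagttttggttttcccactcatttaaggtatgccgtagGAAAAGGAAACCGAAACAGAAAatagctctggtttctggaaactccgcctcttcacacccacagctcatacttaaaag
Rsad2 (chr12:26456453-26456602, minus strand): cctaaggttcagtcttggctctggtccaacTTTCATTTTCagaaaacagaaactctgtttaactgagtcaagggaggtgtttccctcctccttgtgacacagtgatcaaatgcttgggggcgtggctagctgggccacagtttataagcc
Gbp2 (chr3:142620513-142620662, plus strand): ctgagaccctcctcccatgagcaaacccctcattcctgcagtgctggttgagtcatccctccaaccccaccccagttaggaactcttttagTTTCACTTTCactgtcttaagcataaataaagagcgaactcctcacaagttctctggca
Ifitm2 (chr7:140955962-140956111, minus strand): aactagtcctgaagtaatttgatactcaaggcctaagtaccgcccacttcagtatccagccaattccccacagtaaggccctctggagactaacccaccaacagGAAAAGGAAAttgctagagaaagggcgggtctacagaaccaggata
Ifnar2 (chr16:91372633-91372782, plus strand): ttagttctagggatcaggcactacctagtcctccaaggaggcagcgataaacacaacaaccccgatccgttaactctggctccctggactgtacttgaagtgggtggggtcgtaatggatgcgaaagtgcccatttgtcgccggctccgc

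Ifit1 held a pair of separate matches on the opposite strand, from −104 to −95 and from −85 to −76, counting −1 as the base just before the start. Isg15 held 3 matches that overlap each other, with first bases at −78, −72 and −66. Rsad2, Gbp2 and Ifitm2 held 1 match each. Ifnar2, a receptor chain that feeds the pathway rather than an antiviral effector, held none in these letters.

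Between the fractions, none of the 44 genes passed the test (edgeR quasi-likelihood, Benjamini-Hochberg adjusted p under 0.05 over 13300 genes), higher or lower in Hdc-GFPhi. Over all tested genes 0.947% passed, 0.707% as lower and 0.241% as higher in Hdc-GFPhi. The log2 fold change of Hdc-GFPhi over Hdc-GFPlo was above 0 for 19 members and below 0 for 25. Without a composition factor the split was 21 and 23. The members' median was −0.03, beside −0.000455 over all tested genes, and single members ran from −0.78 for Ifi27l2a to 0.30 for Gbp2. At an unadjusted p under 0.05 there were 4 members, or 9.09%, beside 10.9% of all tested genes: Ifi27l2a, Rtp4 and Ifi203 with values below 0, and Gbp2 above 0. DESeq2 and voom also called 0 of the 44. The libraries of the fractions did not overlap for 1 member, Gbp2, beside 6.92% of all tested genes in either direction and 3.38% in the direction of Gbp2.

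The 95% intervals show what size of difference the data still allow. They lay within 2-fold in both directions for 40 of the 44 members (90.9%), beside 80.5% of all tested genes, and within 1.5-fold for 31. The 4 whose intervals reached past 2-fold were Ifi204, Mx1, Oas2 and Ifi27l2a. A missed threshold does not show equal levels for any of them. In bulk libraries, fewer expressing cells and less RNA per cell cannot be told apart, here and in all values that follow.

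**Figure D1:**
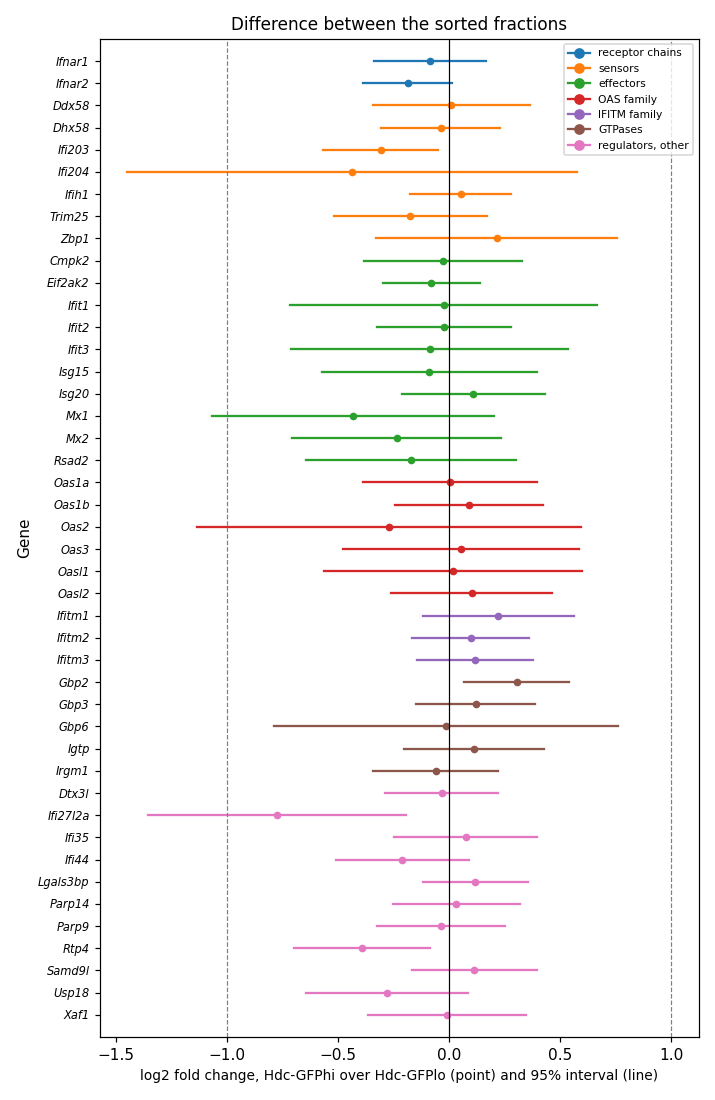
Log2 fold change of Hdc-GFPhi over Hdc-GFPlo (x axis) for each of the 44 genes (y axis), with 95% intervals from the edgeR fit, grouped by role. The values run from −0.78 (Ifi27l2a) to 0.30 (Gbp2), and no gene passed the adjusted threshold.

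The receptor chains sit at the top of the pathway. Ifnar2, the chain that holds interferon most tightly, stood at 218, 198, 182 and 188 CPM in Hdc-GFPhi replicates 1 to 4 and 232, 229, 217 and 216 in those of Hdc-GFPlo. The Hdc-GFPlo libraries lay close together at the upper end, and the fractions overlapped only through Hdc-GFPhi replicate 1. Its means were 196 ± 16 against 224 ± 8.05 CPM (SD, n = 4), and the log2 fold change was −0.19 ± 0.09 (95% interval −0.39 to 0.01, adjusted p = 0.508). Ifnar1, its partner chain, stood at 145, 146, 126 and 124 CPM in Hdc-GFPhi replicates 1 to 4 and 148, 152, 116 and 158 in those of Hdc-GFPlo. Hdc-GFPlo replicate 3 was the lowest of the 8 libraries, and the fractions overlapped only through it. The log2 fold change of Ifnar1 was −0.08 ± 0.12 (adjusted p = 0.87).

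The 7 sensors detect foreign nucleic acid or relay that signal, and 3 had a value above 0 and 4 below, with a median of −0.04. Ifi203, a member of the DNA-binding Ifi200 family, had 98.2, 122, 123 and 133 CPM in Hdc-GFPhi replicates 1 to 4 and 156, 150.5, 159 and 124 in those of Hdc-GFPlo. All Hdc-GFPhi libraries lay at or under 133 CPM, and the Hdc-GFPlo libraries lay above that except replicate 4. Its means were 119 ± 14.7 against 147 ± 15.8 CPM, with a log2 fold change of −0.31 ± 0.12 (95% interval −0.57 to −0.05, unadjusted p = 0.023, adjusted p = 0.338). Ifi204, a relative in the same gene cluster, was the member with the fewest reads, 11 to 80 counts per library. Its levels were 2.85, 2.75, 2 and 0.490 CPM in Hdc-GFPhi replicates 1 to 4 and 3.54, 3.03, 2.71 and 1.67 in those of Hdc-GFPlo, and the lowest was Hdc-GFPhi replicate 4. The interval of its log2 fold change ran from −1.45 to 0.58, the widest among the sensors. The Ifi200 genes resemble each other, with the counting of shared reads not given in the sources used here.

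Zbp1, which senses left-handed nucleic acid and triggers cell death, had 19.7, 13.4, 9.39 and 10.2 CPM in Hdc-GFPhi replicates 1 to 4 and 14.5, 12.3, 9.80 and 8.77 in those of Hdc-GFPlo. Replicate 1 was the highest library in each fraction. Its log2 fold change was 0.21 ± 0.25 (adjusted p = 0.844). Trim25, the ubiquitin ligase that activates RIG-I, had 133, 119.8, 107 and 84 CPM in Hdc-GFPhi replicates 1 to 4 and 147, 124, 94.3 and 135 in those of Hdc-GFPlo. The lowest library of each fraction was a different replicate, 4 in Hdc-GFPhi and 3 in Hdc-GFPlo, and the log2 fold change was −0.17 ± 0.16 (adjusted p = 0.784). The RNA helicases were close to 0: Ifih1 (MDA5) at 0.05 ± 0.10, Ddx58 (RIG-I) at 0.01 ± 0.16 and Dhx58 (LGP2) at −0.04 ± 0.12. Ifih1 was among the most even members, with the highest library 1.13 times the lowest in Hdc-GFPhi and 1.09 times in Hdc-GFPlo. Its 95% interval was −0.18 to 0.28.

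Among the 10 effectors, which act on viral RNA, translation or nucleotides, 9 had a log2 fold change below 0 and 1 above, with a median of −0.08 and no call. Ifit1, whose protein binds RNA with a foreign cap, had 61.6, 48, 24.9 and 20.6 CPM in Hdc-GFPhi replicates 1 to 4 and 56.4, 38.8, 36.8 and 25.8 in those of Hdc-GFPlo. Its spread within a fraction was 2.98-fold in Hdc-GFPhi and 2.19-fold in Hdc-GFPlo, while the means nearly coincided at 38.8 ± 19.4 against 39.5 ± 12.7 CPM. Its log2 fold change of −0.03 ± 0.32 had an interval of −0.72 to 0.67. Leaving out Hdc-GFPhi replicate 3 gave 0.14, leaving out its replicate 4 gave 0.19, and leaving out Hdc-GFPlo replicate 1 gave 0.20. Ifit3, which partners Ifit1, had 14, 10.3, 6.72 and 7.22 CPM in Hdc-GFPhi replicates 1 to 4 and 14, 10.2, 10.5 and 5.98 in those of Hdc-GFPlo. Replicate 1 was again highest in each fraction, and the log2 fold change was −0.09 ± 0.29 (adjusted p = 0.951). A near-identical copy, Ifit3b, may share its reads.

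Mx1, a GTPase that traps viral nucleoproteins, had 12.1, 9.66, 5.30 and 7.58 CPM in Hdc-GFPhi replicates 1 to 4 and 17.7, 11.9, 8.75 and 8.21 in those of Hdc-GFPlo. The fractions overlapped, and Hdc-GFPlo replicate 1 was the highest of the 8. Its means were 8.65 ± 2.90 against 11.7 ± 4.37 CPM, with a log2 fold change of −0.43 ± 0.29 (interval −1.07 to 0.20, adjusted p = 0.684). Mx2, its neighbour, had 7.18, 5.79, 6.54 and 6.42 CPM in Hdc-GFPhi replicates 1 to 4 and 9.78, 8.43, 6.70 and 5.63 in those of Hdc-GFPlo. The Hdc-GFPhi libraries differed little, whereas Hdc-GFPlo spread around them on both sides. The log2 fold change of Mx2 was −0.24 ± 0.22 (adjusted p = 0.786). Rsad2, which encodes viperin and makes a chain-terminating nucleotide, had 53.3, 61.4, 35 and 27.2 CPM in Hdc-GFPhi replicates 1 to 4 and 53.9, 56, 45.4 and 43.7 in those of Hdc-GFPlo. Its lowest library was Hdc-GFPhi replicate 4, and the range was wider in Hdc-GFPhi (2.25-fold) than in Hdc-GFPlo (1.28-fold). For the fractions as a whole it gave −0.17 ± 0.22 on the log2 scale (adjusted p = 0.858).

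Eif2ak2, which encodes the kinase PKR that halts translation on double-stranded RNA, had 103, 96.9, 107 and 85.6 CPM in Hdc-GFPhi replicates 1 to 4 and 109.6, 104, 99 and 102 in those of Hdc-GFPlo. The fractions overlapped, and the log2 fold change was −0.08 ± 0.10 (adjusted p = 0.857). Isg15, the ubiquitin-like modifier with 3 overlapping promoter matches, had 19.9, 11.1, 13 and 15.8 CPM in Hdc-GFPhi replicates 1 to 4 and 20.7, 15.1, 16.6 and 11.2 in those of Hdc-GFPlo. Its highest and lowest libraries were replicates 1 and 2 in Hdc-GFPhi and replicates 1 and 4 in Hdc-GFPlo, and the log2 fold change was −0.09 ± 0.22. The others were Ifit2 at −0.02 ± 0.14, Cmpk2, a nucleotide kinase next to Rsad2, at −0.03 ± 0.16, and Isg20, an RNA exonuclease and the one effector above 0, at 0.11 ± 0.15.

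The 6 OAS genes encode the enzymes that make the 2-5A messenger, which switches on the ribonuclease RNase L, and relatives of these enzymes. In 5 of the 6 the log2 fold change was above 0, with a median of 0.03 and no call. Oas2 had 114, 75.2, 44.7 and 36.9 CPM in Hdc-GFPhi replicates 1 to 4 and 128, 91.6, 48.3 and 58.1 in those of Hdc-GFPlo. Levels in replicate 1 exceeded those of replicates 3 and 4 more than 2-fold in each fraction, and the highest library was 3.09 times the lowest in Hdc-GFPhi and 2.66 times in Hdc-GFPlo. The means were 67.7 ± 35 against 81.6 ± 36.3 CPM, a log2 fold change of −0.27 ± 0.39 with an interval of −1.14 to 0.60. Oas2 is thus a member for which a 2-fold difference between the fractions lay inside the interval. Without Hdc-GFPlo replicate 1 the log2 fold change was 0.04.

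Oas3 had 68.3, 47.5, 40.1 and 33.4 CPM in Hdc-GFPhi replicates 1 to 4 and 61.9, 49.1, 28 and 43.4 in those of Hdc-GFPlo. Hdc-GFPlo replicate 3 was the lowest library, and the log2 fold change was 0.05 ± 0.24 (adjusted p = 0.971), or −0.18 when Hdc-GFPhi replicate 1 was left out and −0.11 when Hdc-GFPlo replicate 3 was. Oasl2, a family member with a ubiquitin-like tail, had 226, 224, 146 and 154 CPM in Hdc-GFPhi replicates 1 to 4 and 217, 180.1, 154 and 148 in those of Hdc-GFPlo. Replicates 1 and 2 stood above replicates 3 and 4 in both fractions, and the log2 fold change was 0.10 ± 0.17 (adjusted p = 0.901). Oas1b, the gene of flavivirus resistance in mice, had 14.2, 12.5, 11.6 and 13.3 CPM in Hdc-GFPhi replicates 1 to 4 and 11, 11.7, 12.7 and 13 in those of Hdc-GFPlo. It was the flattest of the family, with a log2 fold change of 0.09 ± 0.15. No sequence of Oas1b was read here, so its RNA level does not show a working resistance gene in these mice. Oasl1 had 27.6, 25.8, 15.2 and 13.4 CPM in Hdc-GFPhi replicates 1 to 4 and 27.1, 24, 14.4 and 15.6 in those of Hdc-GFPlo, which puts replicates 1 and 2 above the other two in both fractions. Oas1a, whose reads may be shared with the near-identical Oas1g, had 53.7, 36.7, 30.3 and 31.7 CPM in Hdc-GFPhi replicates 1 to 4 and 44.7, 36.1, 38.1 and 33 in those of Hdc-GFPlo, with replicate 1 highest in each fraction.

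The 3 IFITM genes, which encode small membrane proteins that block virus entry and are known to be expressed in stem cells without interferon, all had values above 0. Ifitm1 had 331, 413, 309 and 389 CPM in Hdc-GFPhi replicates 1 to 4 and 249, 368, 375 and 245 in those of Hdc-GFPlo. Hdc-GFPlo replicates 1 and 4 were low and replicates 2 and 3 lay within the Hdc-GFPhi range. Between the fractions its log2 fold change was 0.22 ± 0.16 (interval −0.12 to 0.56, adjusted p = 0.701). Ifitm2 had 301, 250, 249.7 and 304 CPM in Hdc-GFPhi replicates 1 to 4 and 229, 241, 315 and 249 in those of Hdc-GFPlo. The highest of the 8 libraries was Hdc-GFPlo replicate 3. The log2 fold change of Ifitm2 was 0.10 ± 0.12 (adjusted p = 0.856) and −0.0042 without both libraries numbered 1. Ifitm3 had 339.6, 319.8, 274 and 337 CPM in Hdc-GFPhi replicates 1 to 4 and 288, 279, 356 and 249 in those of Hdc-GFPlo. Again Hdc-GFPlo replicate 3 was highest, and the log2 fold change was 0.12 ± 0.12 (adjusted p = 0.819). These genes lie side by side and share sequence, so their reads may be split between them.

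Interferon-induced GTPases attack the compartments of intracellular pathogens and respond above all to type II interferon. Of the 5, 3 had values above 0 and 2 below (4 and 1 without a composition factor), with a median of 0.11. Gbp2 had 99.5, 107, 89.3 and 90.3 CPM in Hdc-GFPhi replicates 1 to 4 and 79.4, 87.5, 71.9 and 73.8 in those of Hdc-GFPlo. Every Hdc-GFPhi library lay above every Hdc-GFPlo library, by a small margin: the lowest Hdc-GFPhi level was 89.3 and the highest Hdc-GFPlo level 87.5. Its means were 96.5 ± 8.31 against 78.2 ± 7 CPM, with a log2 fold change of 0.30 ± 0.11 (interval 0.07 to 0.54, unadjusted p = 0.0157, adjusted p = 0.283). The adjusted p ran from 0.142 to 0.877 over the alternative settings, so Gbp2 was called under none of them. Gbp3, its neighbour, had 56.2, 58, 53.1 and 56.3 CPM in Hdc-GFPhi replicates 1 to 4 and 46.2, 62.9, 51.1 and 45.9 in those of Hdc-GFPlo. The Hdc-GFPhi libraries lay inside the Hdc-GFPlo range, and the log2 fold change was 0.12 ± 0.12 (adjusted p = 0.823).

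Gbp6 had 17.7, 18.7, 8.95 and 6.55 CPM in Hdc-GFPhi replicates 1 to 4 and 20, 15, 9.64 and 7.76 in those of Hdc-GFPlo. Replicates 1 and 2 were above replicates 3 and 4 in both fractions, up to 2.86-fold in Hdc-GFPhi, while the means were 13 ± 6.13 against 13.1 ± 5.53 CPM and the log2 fold change −0.01 ± 0.36 with an interval of −0.79 to 0.76. The sign of this value turned under several settings, among them no composition factor (0.01). Gbp10, a close copy, may share its reads. Igtp, also called Irgm3, had 96.1, 100.4, 70.8 and 65.8 CPM in Hdc-GFPhi replicates 1 to 4 and 80.5, 82.1, 76.8 and 68.9 in those of Hdc-GFPlo. The same replicates led in both fractions, and its log2 fold change was 0.11 ± 0.15 (adjusted p = 0.861). Irgm1, a regulator of this family that is known to be needed for stem cell upkeep in mice, had 260, 228, 205 and 172 CPM in Hdc-GFPhi replicates 1 to 4 and 259, 222, 222 and 199 in those of Hdc-GFPlo. Its log2 fold change was −0.06 ± 0.13 (adjusted p = 0.925), and 0.04 without Hdc-GFPhi replicate 4.

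The 11 remaining genes are regulators and genes of less settled function, with 4 values above 0 and 7 below (5 and 6 without a composition factor) and a median of −0.03. Ifi27l2a, which encodes a small hydrophobic protein of internal membranes, had 8.25, 4.71, 4.50 and 4.95 CPM in Hdc-GFPhi replicates 1 to 4 and 10.6, 12.4, 9.14 and 6.24 in those of Hdc-GFPlo. Hdc-GFPhi replicates 2 to 4 lay under 5 CPM and under every Hdc-GFPlo library, and Hdc-GFPhi replicate 1 lay within the Hdc-GFPlo range. The means were 5.60 ± 1.77 against 9.60 ± 2.61 CPM, with a log2 fold change of −0.78 ± 0.27 (interval −1.36 to −0.20, unadjusted p = 0.0129), the largest size among the 44. The adjusted p was 0.259, and 0.108 to 0.561 over the alternatives. Rtp4, a chaperone of membrane receptors that also binds RNA, had 119, 96.9, 83 and 102 CPM in Hdc-GFPhi replicates 1 to 4 and 149.7, 129.6, 145 and 103 in those of Hdc-GFPlo. Only Hdc-GFPlo replicate 4 reached down into the Hdc-GFPhi range. The means were 100.3 ± 15 against 132 ± 21.1 CPM, with a log2 fold change of −0.39 ± 0.14 (interval −0.70 to −0.09, unadjusted p = 0.0156, adjusted p = 0.281).

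Usp18, which removes ISG15 from proteins and blocks IFNAR2 as the main brake of the pathway, had 66.3, 49, 44.2 and 42.1 CPM in Hdc-GFPhi replicates 1 to 4 and 78.6, 55.6, 57.1 and 53.7 in those of Hdc-GFPlo. Its replicate 1 was highest in each fraction, and the log2 fold change was −0.28 ± 0.17 (adjusted p = 0.62). Ifi44 had 66.9, 49.4, 58.6 and 53 CPM in Hdc-GFPhi replicates 1 to 4 and 79.99, 58.7, 66 and 59 in those of Hdc-GFPlo. The fractions overlapped, and its log2 fold change was −0.21 ± 0.14 (adjusted p = 0.665). The other 7 lay near 0: Lgals3bp at 0.12 ± 0.11 and Samd9l, a growth restrictor of blood cells, at 0.11 ± 0.13 were the highest. Ifi35 stood at 0.07 ± 0.15, Parp14 at 0.03 ± 0.13 and Xaf1 at −0.01 ± 0.16. Parp9 and its partner ligase Dtx3l, which share a promoter region, stood at −0.04 ± 0.13 and −0.03 ± 0.12.

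Levels can be set side by side only per length, here as CPM per kilobase of exon (lengths from GENCODE M21, since an annotation of the files' mm9 build was not used here). On this scale the median member stood at 21.5. The IFITM genes led, with Ifitm3 at 469 ± 44.6 in Hdc-GFPhi and 432 ± 66.8 in Hdc-GFPlo. Ifitm2 followed at 422 ± 46.7 and 395 ± 58.8, which overlaps Ifitm3 within 1 SD. Ifitm1 was next at 330 ± 44.5 and 283 ± 65.9, which overlaps Ifitm2 within 1 SD in Hdc-GFPlo. The step down from there was wide, to Lgals3bp at 111 ± 8.25 and 102 ± 12.7 and Irgm1 at 93.8 ± 16.1 and 97.9 ± 10.8, a pair that overlapped within 1 SD in both fractions. The lowest levels over all 8 libraries were those of Mx1 (3), Mx2 (2.91) and Ifi204 (1.04). C57BL/6 mice are known to carry a defective Mx1 gene, and no sequence of it was read here.

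The larger pattern was between libraries of the same fraction. A member's highest level within Hdc-GFPhi was that of replicate 1 for 27 of the 44 genes (61.4%), beside 22.6% of all tested genes. Within Hdc-GFPlo it was that of replicate 1 for 26 (59.1%), beside 19.6%. The lowest level was that of replicate 3 for 19 members and replicate 4 for 18 in Hdc-GFPhi, or 43.2% and 40.9%, beside 22.2% and 28.6% of all tested genes. In Hdc-GFPlo it was that of replicate 4 for 24 members (54.5%, beside 19%) and of replicate 3 for 16 (36.4%), a share near the 35.1% of all tested genes. Replicates 1 and 2 both exceeded replicates 3 and 4 in both fractions for 20 members (45.5%), beside 7.36% of all tested genes. The opposite order in both fractions was found for 0 members and for 7.38% of all tested genes. The numbers of the replicates are labels, and which samples share a number is not known to mean a shared animal or day. These counts are a description of the list, with no test.

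**Figure D2:**
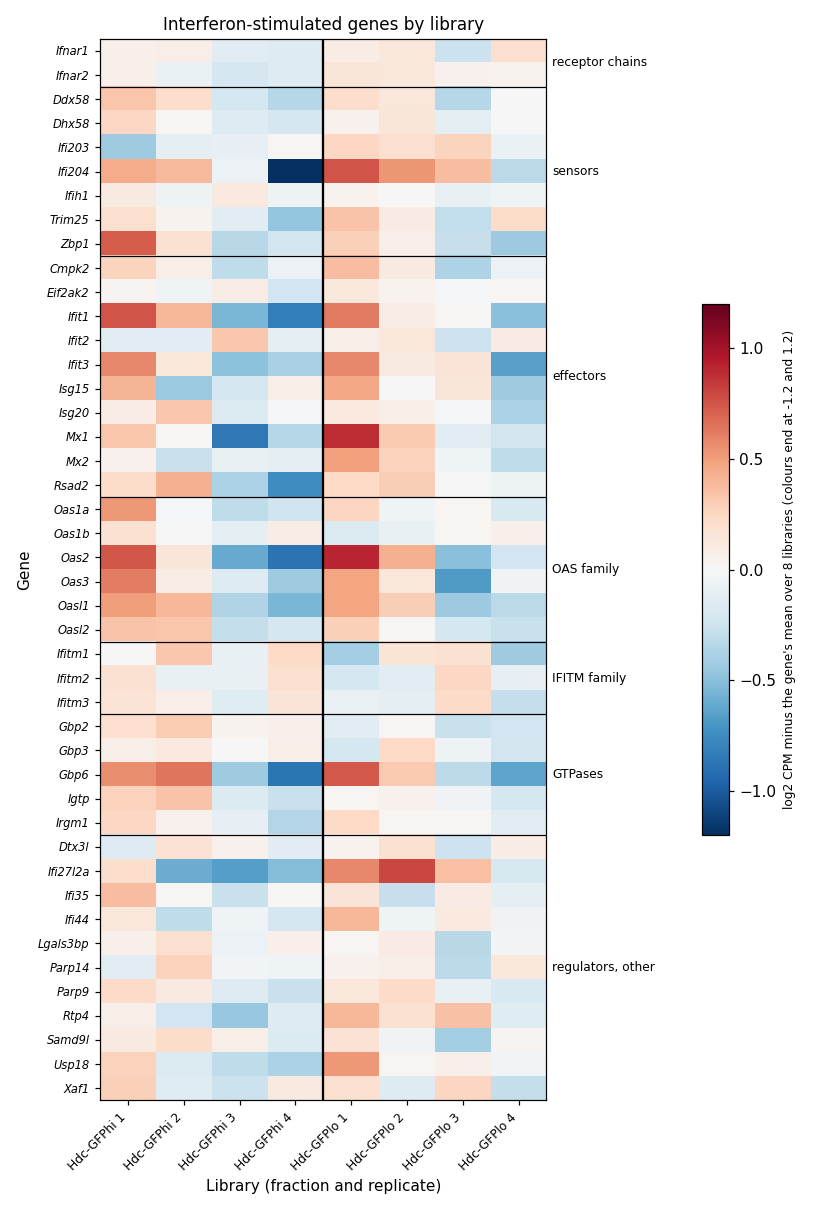
Level of each of the 44 genes (y axis, by role) in each of the 8 libraries (x axis), as the difference in log2 CPM from the gene's mean over all libraries, on a colour scale. The library medians are 0.22 and 0.22 in the replicates numbered 1 and −0.18 and −0.14 in those numbered 4.

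By role, the counts were as follows, with no test of a difference between these small groups. Of the GTPases, 4 of 5 showed the order in both fractions (Gbp2, Gbp6, Igtp and Irgm1). Of the OAS genes it was 4 of 6 (Oas2, Oas3, Oasl1 and Oasl2). Of the sensors it was 4 of 7 (Ddx58, Dhx58, Ifi204 and Zbp1), and of the effectors 5 of 10 (Cmpk2, Ifit1, Isg20, Mx1 and Rsad2). The regulators had 2 of 11, Lgals3bp and Parp9, and the receptors 1 of 2, Ifnar2. The IFITM genes had 0 of 3: each was lowest in replicate 3 within Hdc-GFPhi and highest in replicate 3 within Hdc-GFPlo. Over all tested genes, replicate 3 was lowest within Hdc-GFPhi for 22.2%. Within Hdc-GFPlo it was highest for 35.2% and lowest for 35.1%, so extremes in that library are not particular to these genes. Neighbouring genes such as Oas2 and Oas3, or Gbp2 and Gbp3, are not independent counts. Of the genes with a promoter window, 7 of the 16 with a match and 6 of the 15 without one showed this order.

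**Figure D3:**
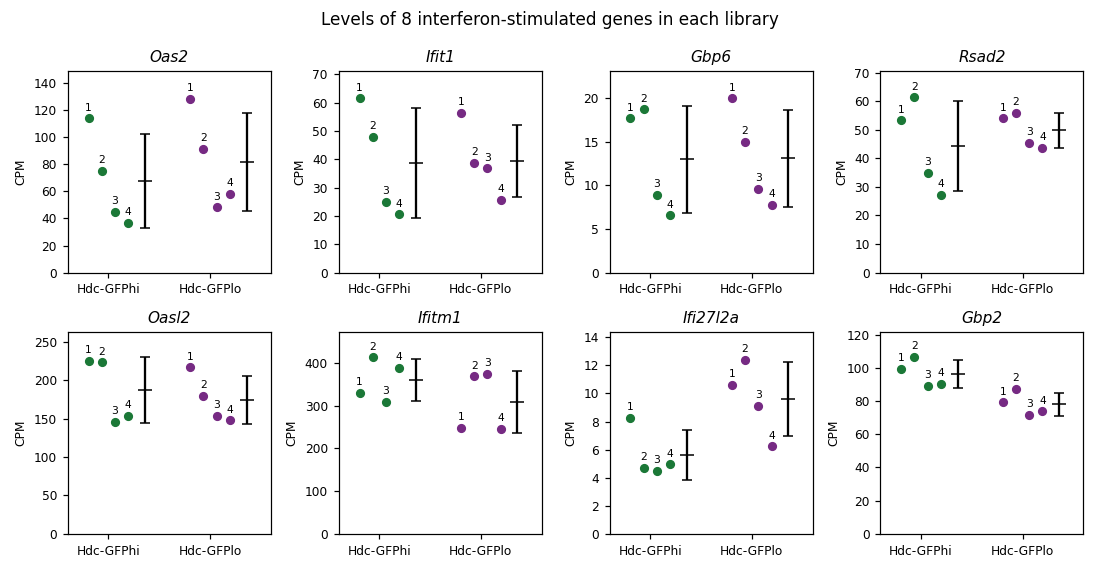
Level in CPM (y axis) of 8 members in the 4 libraries of each fraction (x axis), 1 point per library with its replicate number, beside bars for the mean ± SD (n = 4). Oas2 runs from 36.9 to 114 in Hdc-GFPhi and from 48.3 to 128 in Hdc-GFPlo, whereas Gbp2 keeps every Hdc-GFPhi library above 87.5.

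The size of the spread can be read against other genes. The members' median range of log2 CPM was 0.53 in Hdc-GFPhi and 0.51 in Hdc-GFPlo. Over the 11145 tested genes within the members' range of mean level it was 0.42 and 0.48. A range over 1 on this scale was seen for 10 members in Hdc-GFPhi and 7 in Hdc-GFPlo, 22.7% and 15.9%, beside 8.69% and 8.27% of genes in that level range. Over all 13300 tested genes, whatever their level, the median range was 0.46 and 0.53, and 16.7% and 15.9% had a range over 1. The members' median in Hdc-GFPlo was thus below that of all tested genes, with the same share over 1. The OAS genes had median ranges of 0.93 and 0.73 and the effectors 0.71 and 0.76, while the 11 regulators held no gene with a range over 1. Summed over the 44 members, the level was 4550, 4392, 3735 and 3825 CPM in Hdc-GFPhi replicates 1 to 4 and 4445, 4301, 3975 and 3798 in those of Hdc-GFPlo. In both fractions replicates 1 and 2 thus stood above replicates 3 and 4, and the fractions overlapped.

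**Figure D4:**
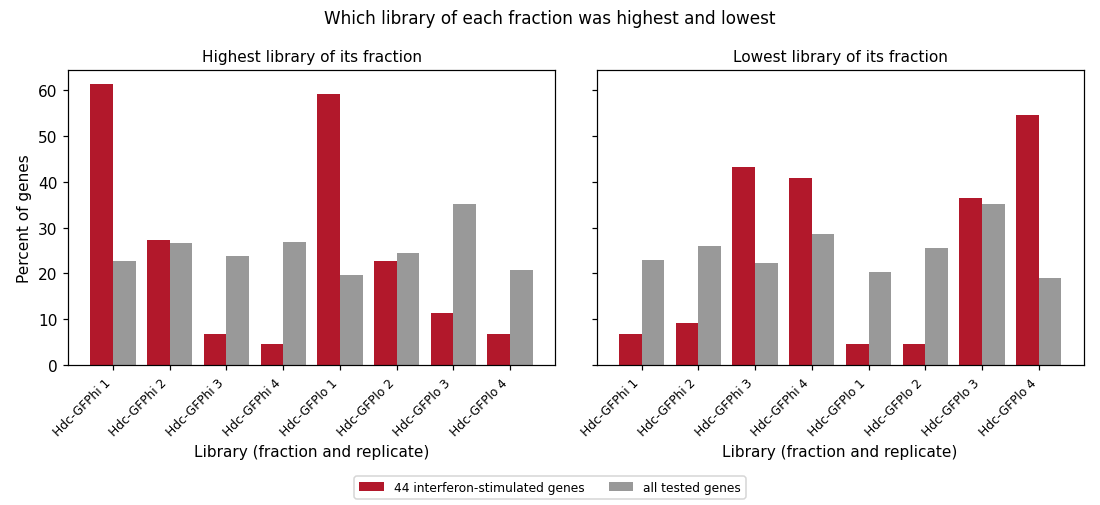
Percent of genes (y axis) for which each library (x axis) is the highest (left) or the lowest (right) of its fraction, for the 44 members and for all tested genes. Replicate 1 is highest for 61.4% of the members in Hdc-GFPhi and 59.1% in Hdc-GFPlo, beside 22.6% and 19.6% of all tested genes.

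The summed level of 11 lymphoid progenitor genes (Flt3, Dntt, Il7r, Rag1 and others) was 1850, 1730, 1480 and 1430 CPM in Hdc-GFPhi replicates 1 to 4. In those of Hdc-GFPlo it was 3950, 3450, 2930 and 3160. In this sum replicates 1 and 2 led in each fraction, as they did for the members. Flt3 (17388 to 30805 counts per library) and Dntt (3661 to 30618) made up most of it. Il7r (84 to 1073) and Rag1 (5 to 324) were scarcer. The order is that of the sum and not of every gene in it: Dntt and Il7r did not follow it in Hdc-GFPlo. The part of these genes in the members' order was not tested. A list of 12 plasmacytoid dendritic cell markers summed to at most 540 CPM in a library of Hdc-GFPhi and at least 636 in one of Hdc-GFPlo, but Irf7, Irf8 and Bst2 in it are interferon pathway genes themselves. Without them, the other 9 gave 333, 350, 332 and 340 CPM in Hdc-GFPhi replicates 1 to 4, with no such order, and 497, 426, 481 and 446 in those of Hdc-GFPlo. Most of this sum came from Tcf4 (4002 to 4492 counts in Hdc-GFPhi, 3770 to 5810 in Hdc-GFPlo) and Runx2 (2832 to 3110 and 2589 to 3639). It therefore says little about the scarcer markers of the list. Siglech, a defining marker, had 42, 1, 1 and 0 counts in Hdc-GFPhi and 60, 42, 10 and 21 counts in Hdc-GFPlo. The monocyte and macrophage list lay between 454 and 478 CPM in Hdc-GFPhi, and between 536 and 600 in Hdc-GFPlo. Lyz2 (6929 to 9388 counts per library) made up most of that sum. Neutrophil genes summed to 2070, 2040, 2670 and 2400 CPM in Hdc-GFPhi replicates 1 to 4, with replicates 3 and 4 above the others, and to 3130, 2460, 3230 and 2570 in those of Hdc-GFPlo. B and plasma cell genes summed to 143, 184, 124 and 112 CPM in Hdc-GFPhi replicates 1 to 4, which is the members' order, and to 364, 334, 422 and 377 in those of Hdc-GFPlo, which is not. Igj alone had 18, 1604, 3313 and 3036 counts in Hdc-GFPlo replicates 1 to 4 and weighs heavily on the order there. The sum without Igj was not computed. T and NK cell genes summed to at most 287 CPM in a library of Hdc-GFPhi and at most 392 in one of Hdc-GFPlo, with Cd8a at 0 in all libraries. Nkg7 (2692 to 4123 counts per library) and Lck (1782 to 3221) made up most of this, so the sum says little about the scarcer markers. Total counts did not follow the order in either fraction: replicate 2 had the fewest in each, 21041170 and 16726179.

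The rest of the pathway was read from a list of 167 further genes, of which 153 were in the table and 120 were tested. In this list 3 genes fell in Hdc-GFPhi (Tlr7, Irf8 and Pyhin1) and 0 rose, and the median log2 fold change was −0.01. The 3 are 2.5% of the 120, beside 0.707% of all tested genes called lower. At an unadjusted p under 0.05 there were 12 lower and 4 higher, together 13.3%, beside 10.9% of all tested genes. Interferon genes themselves were near the limit of detection: of 19 in the table, 14 had 0 counts in all libraries, and together they had 26 counts in Hdc-GFPhi and 35 in Hdc-GFPlo. Ifnb1 was among those at 0, and Ifng had 1 count in all. Ifnk had 2 counts in Hdc-GFPhi and 19 in Hdc-GFPlo, too few for the test, as for all the ligands.

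Tlr7, the endosomal receptor for single-stranded RNA that drives interferon production in plasmacytoid dendritic cells, had 13.9, 11.2, 9.71 and 10.1 CPM in Hdc-GFPhi replicates 1 to 4 and 34.3, 28.2, 26.2 and 23 in those of Hdc-GFPlo. All Hdc-GFPhi libraries lay well under all Hdc-GFPlo libraries. The means were 11.2 ± 1.87 against 27.9 ± 4.74 CPM, a log2 fold change of −1.31 ± 0.17 (adjusted p = 0.00338). Irf8, a transcription factor of dendritic cells and monocytes, had 33, 28.7, 22.4 and 19.3 CPM in Hdc-GFPhi replicates 1 to 4 and 76.8, 63.9, 52.4 and 58.8 in those of Hdc-GFPlo. Again the fractions did not overlap, with means of 25.9 ± 6.16 against 63 ± 10.4 CPM and a log2 fold change of −1.29 ± 0.18 (adjusted p = 0.00507). Pyhin1, an Ifi200 gene near Ifi203 and Ifi204, had 11.3, 12.4, 9.57 and 5.48 CPM in Hdc-GFPhi replicates 1 to 4 and 33.2, 22.1, 22.1 and 23.1 in those of Hdc-GFPlo. The means were 9.69 ± 3.03 against 25.1 ± 5.40 CPM, a log2 fold change of −1.38 ± 0.24 (adjusted p = 0.0169). Under the alternatives the adjusted p reached at most 0.0208 for Tlr7 and 0.0285 for Irf8. The call on Pyhin1 was lost when Hdc-GFPhi replicate 3 (adjusted p = 0.0706), Hdc-GFPlo replicate 1 (0.0709) or both libraries numbered 1 (0.131) were left out.

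Markers of other cell types differed between the fractions beside these 3 genes. Of the lymphoid progenitor list 8 of 11 fell in Hdc-GFPhi. Of the plasmacytoid list 4 of the 10 tested fell (Ccr9, Ly6d, Cox6a2 and Irf8 itself). Of the monocyte and macrophage list 2 of 10 fell (Ly6c2 and Ccr2). Of the T and NK cell list 1 of the 4 tested fell (Lck), and of the B and plasma cell list 1 of 7 (Cd79a). The neutrophil list (11 genes tested), the erythroid and megakaryocyte list (6) and the endothelium and stroma list (5) had 0 calls. Over all tested genes 0.707% were called lower. The part of such cells in the levels of Tlr7, Irf8 and Pyhin1 was not tested.

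**Figure D5:**
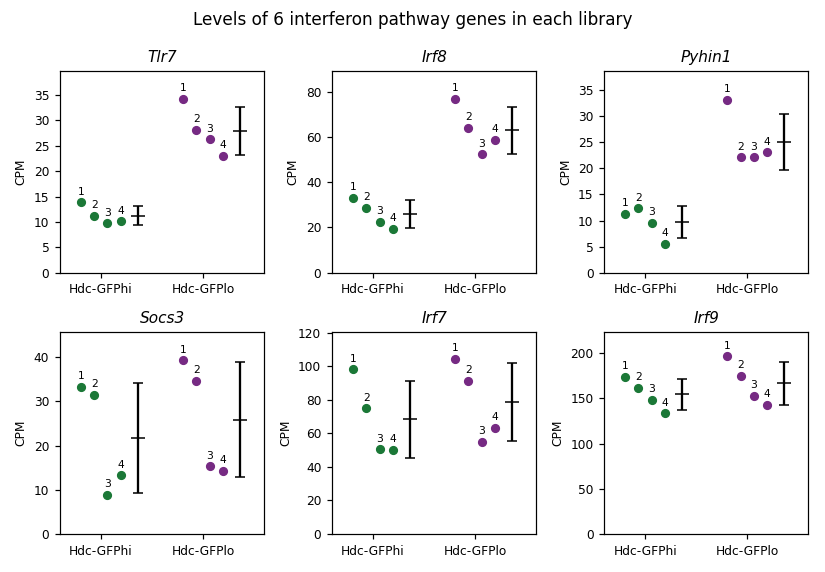
Level in CPM (y axis) of 6 genes of the wider pathway in the 4 libraries of each fraction (x axis), 1 point per library with its replicate number, beside bars for the mean ± SD (n = 4). Tlr7 lies at 9.71 to 13.9 in Hdc-GFPhi and 23 to 34.3 in Hdc-GFPlo, and Irf8 at 19.3 to 33 and 52.4 to 76.8.

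The other receptor chains, 4 in number, gave 0 calls and a median of −0.31. Ifngr1, the binding chain of the type II receptor, had 140, 167, 155 and 148 CPM in Hdc-GFPhi replicates 1 to 4 and 184, 206, 176 and 180.5 in those of Hdc-GFPlo. The fractions did not overlap, and the log2 fold change was −0.29 ± 0.10 (adjusted p = 0.239). Il10rb, shared by the type III interferon and interleukin-10 receptors, had 119.7, 114, 109.6 and 104 CPM in Hdc-GFPhi replicates 1 to 4 and 142, 124, 158 and 136 in those of Hdc-GFPlo. Here too every Hdc-GFPlo library was above every Hdc-GFPhi library, and the log2 fold change was −0.32 ± 0.10 (adjusted p = 0.209). Il28ra, the type III chain proper, was scarce and gave −0.94 ± 0.83 (adjusted p = 0.78).

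Among 26 tested signalling genes the median was 0.00, and Tlr7 and Irf8 were the calls. Tmem173, which encodes the DNA-pathway adaptor STING, had 139.7, 148, 109 and 102 CPM in Hdc-GFPhi replicates 1 to 4 and 192, 166, 176 and 153 in those of Hdc-GFPlo. All Hdc-GFPlo libraries were above the Hdc-GFPhi ones, at −0.46 ± 0.13 on the log2 scale (adjusted p = 0.159, with 0.0346 under a covariate of replicates 1 and 2 against 3 and 4, and up to 0.562 under the other alternatives). Chosen after their values were seen, Irf7, Irf9 and Socs3 show the order by library that the members show, as did 10 of the 26. Irf7, the master regulator of interferon genes, had 98.4, 75, 50.5 and 50.1 CPM in Hdc-GFPhi replicates 1 to 4 and 105, 91.4, 55.1 and 63.4 in those of Hdc-GFPlo, with a log2 fold change of −0.20 ± 0.24 (adjusted p = 0.851). Irf9, which encodes the DNA-binding part of ISGF3 and is itself induced by interferon, had 174, 162, 148 and 133 CPM in Hdc-GFPhi replicates 1 to 4 and 196, 175, 152 and 143 in those of Hdc-GFPlo (−0.11 ± 0.12, adjusted p = 0.835). Replicates 1 and 2 led in both fractions for each. Socs3, a feedback inhibitor that answers mainly to STAT3, had 33.3, 31.5, 8.81 and 13.2 CPM in Hdc-GFPhi replicates 1 to 4 and 39.3, 34.6, 15.3 and 14.2 in those of Hdc-GFPlo, a 3.77-fold and a 2.76-fold spread within the fractions beside a log2 fold change of −0.25 ± 0.46 (adjusted p = 0.91).

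Of the 90 further interferon-stimulated genes tested, 1 fell (Pyhin1) and the median was −0.01. Slfn4, a myeloid member of the Schlafen family of growth regulators, had 10.3, 10.6, 14.8 and 11 CPM in Hdc-GFPhi replicates 1 to 4 and 18.6, 19.6, 14 and 21.7 in those of Hdc-GFPlo. Only Hdc-GFPhi replicate 3 reached into the Hdc-GFPlo range. Its log2 fold change was −0.67 ± 0.18 (adjusted p = 0.142 by edgeR, 0.023 by DESeq2 and 0.0314 by voom, with up to 0.635 under the other alternatives). Slfn1, of the same family, had 1.34, 2.19, 2.49 and 2.10 CPM in Hdc-GFPhi replicates 1 to 4 and 5.22, 2.97, 3.88 and 4.61 in those of Hdc-GFPlo. The fractions did not overlap, and its log2 fold change was −1.04 ± 0.31 (adjusted p = 0.17 by edgeR and 0.0393 by DESeq2, with up to 0.831 under the other alternatives). The order by library was present in both fractions for 28 of the 120 tested pathway genes (23.3%), and the opposite order for 3.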

How the data were processed

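RNA was isolated from sorted LSK cells, and SMARTer Ultra Low Input amplification and Nextera XT gave the libraries, per the labels' protocols. The authors deposited 1 table of whole-number read counts per gene symbol, not normalized. HTSeq 0.6.1, TopHat2 (2.04), Bowtie2, bcl2fastq 1.8.4 and build mm9 are named in the submitters' processing notes, with the annotation, strand setting and treatment of shared reads not given in the sources used here. Overlapping genes and near-identical copies therefore cannot be told apart.

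The members, roles, pathway list and marker lists were chosen with earlier results of these data known. Groups and replicate numbers come from sample titles. Libraries of a fraction differed beyond sampling noise (chi-square per degree of freedom 13.3 to 55.4). Hdc-GFPlo replicate 3 differed most from its fraction, at 49.8 to 55.4, beside 13.3 to 18.2 between the other Hdc-GFPlo libraries. Genes were kept by filterByExpr and scaled by TMM. Hdc-GFPhi was tested against Hdc-GFPlo by edgeR 4.0.16 quasi-likelihood (robust, no covariate) in R 4.3.3, with p-values adjusted over 13300 genes and a threshold of 0.05. The biological coefficient of variation was 19.9%. CPM are TMM-scaled (SD over 4 libraries) and log2 CPM used a prior count of 2. Amplification without molecular identifiers means that reads copied from 1 molecule are counted separately. In each role, the members with the 4 smallest p-values and the 2 widest ranges were given in full, and of each pathway group the called genes and the 3 smallest p-values; Isg15, Oasl1, Oas1a, Irf7, Irf9 and Socs3 were added after their values were seen. Alternatives were DESeq2 1.42.0, limma voom 3.58.1, other scalings and filters, no robust estimation, a replicate block and leaving out each library. A covariate for replicates 1 and 2 against 3 and 4, and leaving out both libraries numbered 1, were chosen after seeing the data. The test was checked on simulated data.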

Additional observations from a re-analysis of the deposited data

Results flagged for a closer look

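Of 106 sets of 4 libraries (53 genes in 2 fractions), 5 (4.72%) held a library far from the other 3 by Dixon's criterion. Chance alone gives about 1 in 20. Ifit2 stood at 71.2 CPM in Hdc-GFPhi replicate 3, above 51.7 to 52.7 in the others. Usp18 stood at 78.6 CPM in Hdc-GFPlo replicate 1, above 53.7 to 57.1. Ifi27l2a stood at 8.25 CPM in Hdc-GFPhi replicate 1, above 4.50 to 4.95. Parp14 stood at 56.7 CPM in Hdc-GFPlo replicate 3, under 73.4 to 77.1. Pyhin1, of the wider pathway, stood at 33.2 CPM in Hdc-GFPlo replicate 1, above 22.2 to 23.1.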

How the results depend on the processing

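Under all 19 alternatives 0 of the 44 members were called, and the lowest adjusted p of a member was 0.108. The median member log2 fold change ran from −0.13 to 0.06 when 1 library was left out. Pathway genes called lower numbered 3, 5 with DESeq2 (adding Slfn1 and Slfn4), 4 with voom (adding Slfn4), 4 with the covariate (adding Tmem173), and 2 (losing Pyhin1) when replicate 3 of Hdc-GFPhi, replicate 1 of Hdc-GFPlo or both libraries numbered 1 were left out. Calls over all genes were 126, but 404 with DESeq2, 276 with voom, 275 with the covariate, 33 without both libraries numbered 1, and 52 to 146 leaving out 1. With a replicate block, 0 members and 3 pathway genes were called, and 224 genes in all. Same-numbered libraries correlated at 0.26, 0.35, 0.076 and 0.1 over all genes and 0.78, 0.45, 0.093 and 0.41 over the members. Not all were above 0.1 over all genes, and not every library correlated best with its own number, so the numbers were not taken as pairs. For 28 named members, 510 of 532 values kept their direction, and 18 members did so throughout. The values that changed sign follow. Without both libraries numbered 1 the log2 fold changes were −0.00509 for Oas1b, −0.0042 for Ifitm2 and 0.0815 for Gbp6. With no composition factor Gbp6 was 0.0113, and with voom Oas3 was −0.0523. Leaving out 1 library gave −0.34 to 0.20 for Ifit1, −0.33 to 0.11 for Ifit3, −0.64 to 0.0369 for Oas2, −0.18 to 0.24 for Oas3, −0.37 to 0.00794 for Rsad2, −0.24 to 0.27 for Gbp6, −0.16 to 0.0363 for Irgm1 and −0.0437 to 0.35 for Zbp1. The causes were not tested. Il28ra was not kept by the filter of 50 counts in 4 libraries. The ligands and Ifi204 had too few counts for a narrow estimate.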
